A study of Mus musculus with 24 samples.

Results

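The wild-type step of pregnancy from the virgin stage to dp12 was taken as the 3 arrays labelled Wt-dp12 set against the 3 arrays labelled Wt-V, which are 6 of the 24 arrays of the series. The members were chosen by their stage and genotype labels and not by any measured value. All animals, wild type and mutant, are of a mixed strain given as FVB/129SVEV/Black Swiss at ratios of 80%, 10% and 10%. The dp12 arrays come from wild-type mice of 38, 42 and 34 g and the virgin arrays from wild-type mice of 27, 25 and 23 g, by their titles. The series holds 3 arrays for each of 4 stages (V, dp12, dp18 and Lac10) in wild-type and in mutant mice; its title names BRCA1, but the labels used here state neither the mutated allele nor the promoter or cell type of any transgene. The design text gives the stage numbers a unit that does not match the stage names, so the stages are used as coded. The labels name no tissue, and they describe both an extraction of total RNA and a pull-down of mRNA through a tagged protein, so how the RNA was obtained is not settled. The titles also number the wild-type arrays of each group and give each mutant array its own number. Beyond these numbers and the body weights nothing states that the arrays of a group come from separate mice. The p-values therefore reflect only how far arrays differ within the groups of the series, which may be technical.

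In the mouse, pregnancy turns a mammary gland of sparse ducts in fat into one filled with alveoli. Progesterone acts on hormone-sensing luminal cells, which send paracrine signals such as the ligand RANKL (gene Tnfsf11) and Wnt4 to their neighbours, and prolactin acts through Stat5 and Elf5 on the cells that become secretory alveolar cells. Epithelial cells divide through the first part of pregnancy, while genes for milk proteins and milk fat rise step by step towards lactation.

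Promoters of a few genes that the results turn on are shown first, because genes of the cell cycle share short promoter elements. Each line is the 150 bases before the start listed by RefSeq (GRCm38.p6), read 5′ to 3′ on the gene's strand. Capitals in the Mki67, Ect2, Kif11 and Anln lines mark TTTGAA, the letters of the cell-cycle genes homology region (CHR), and CCAAT, the letters of the CCAAT box, each on either strand. Capitals in the Mcm7 and Rrm1 lines mark GCGGGAA, one form of the E2F site, and CCAAT. In the Glycam1 line they mark TTCNNNGAA, the letters of a Stat5 site (GAS).
Mki67: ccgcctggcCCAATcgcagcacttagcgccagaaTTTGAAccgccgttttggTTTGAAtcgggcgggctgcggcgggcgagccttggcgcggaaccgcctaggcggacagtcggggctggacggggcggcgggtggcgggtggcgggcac
Ect2: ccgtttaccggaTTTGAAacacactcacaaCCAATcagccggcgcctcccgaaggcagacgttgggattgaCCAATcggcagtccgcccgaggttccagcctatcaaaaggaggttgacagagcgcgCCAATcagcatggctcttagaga
Kif11: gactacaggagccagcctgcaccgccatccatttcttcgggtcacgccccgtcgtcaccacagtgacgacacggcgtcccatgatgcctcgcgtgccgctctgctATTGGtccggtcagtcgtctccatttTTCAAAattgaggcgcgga
Anln: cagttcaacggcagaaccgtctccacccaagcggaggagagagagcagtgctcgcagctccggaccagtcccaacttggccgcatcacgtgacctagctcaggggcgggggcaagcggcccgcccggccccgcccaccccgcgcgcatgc
Mcm7: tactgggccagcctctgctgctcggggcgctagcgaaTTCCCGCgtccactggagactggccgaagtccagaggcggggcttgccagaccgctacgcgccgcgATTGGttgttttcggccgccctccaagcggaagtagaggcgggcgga
Rrm1: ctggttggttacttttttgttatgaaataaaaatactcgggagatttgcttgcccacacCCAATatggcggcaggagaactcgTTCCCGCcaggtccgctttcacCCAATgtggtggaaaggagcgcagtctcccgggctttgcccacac
Glycam1: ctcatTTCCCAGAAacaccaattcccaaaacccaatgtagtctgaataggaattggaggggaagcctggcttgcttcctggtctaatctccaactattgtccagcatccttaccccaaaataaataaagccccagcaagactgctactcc
The 4 spindle genes are those of largest rise in their list. Mcm7, a helicase subunit, and Rrm1 are the members of largest change in the origin and polymerase lists that hold the E2F letters, a choice made after the letters were searched; Mcm7 itself differed by 1.29 without passing the test (adjusted p = 0.0834). Glycam1 is the whey gene of largest rise. The windows lie at chr7:135716380-135716529, minus strand (Mki67), chr3:27153855-27154004, minus strand (Ect2, the first of 2 listed starts), chr19:37376232-37376381, plus strand (Kif11), chr9:22389207-22389356, minus strand (Anln), chr5:138171267-138171416, minus strand (Mcm7, the first of 2 listed starts), chr7:102441545-102441694, plus strand (Rrm1) and chr15:103565082-103565231, minus strand (Glycam1). The first base of the CHR letters lies at -116 and -98 in Mki67, -138 in Ect2 and -19 in Kif11, counted from the start, and the Anln window holds neither motif. No base of these windows lies in 2 of the marked motifs. The CHR letters occur in this window in 13 of the 39 spindle and cytokinesis genes with a listed promoter (33.3%) and in 8 of 26 condensin, cohesin and APC genes (30.8%), against 2500 of all 27025 listed promoters (9.25%) and 688 of the 11838 tested genes with one (5.81%). In the kinetochore list 3 of 30 promoters hold them (10.0%). For CCAAT the shares are 25 of 39 spindle genes (64.1%) and 6743 of the 27025 promoters. Among sterol genes 13 of 17 promoters hold CCAAT (76.5%). So do 27 of 38 among endoplasmic reticulum and unfolded protein response genes (71.1%), none of which was called. CCAAT is therefore not particular to the cell-cycle lists. The E2F letters occur in 6 of 23 MCM and origin genes (26.1%) and 8 of 34 polymerase and nucleotide genes (23.5%). The shares are 2.63% of all promoters and 4.17% of the 11838 tested genes with one. The Stat5 letters occur in 1 of 19 whey genes (5.26%), 2 of 3 caseins and 0 of 21 fatty acid genes, against 4.14% of all promoters. A match describes the letters of a window and not a bound site.

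The arrays carry 41345 probe sets; 23521 have 1 gene symbol, 1814 several and 16010 none, which leaves 22180 genes, each read on its brightest probe set. Of these, 15234 were above the array median on at least 3 of the 24 arrays and were tested with limma. In all, 983 genes passed an adjusted p of 0.05, called changed from here on; 901 were higher in dp12 (5.91% of genes tested) and 82 were lower (0.538%). In 980 of the 983 the dp12 and virgin arrays did not overlap, but this happens widely here: 41.7% of all tested genes had every dp12 array above every virgin array and 13.9% had every dp12 array below. The median change over all tested genes was 0.28 on the log2 scale, with a median standard error of 0.30. Centring each array on 26 housekeeping genes moved that median by -0.47, to -0.19, and left 142 calls (81 higher, 61 lower).

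How many genes were called rested on single arrays. Leaving out dp12 replicate 1, 2 or 3 left 4, 146 or 273 calls. Leaving out virgin replicate 1, 2 or 3 left 904, 0 or 18 calls, so in that fit no list count given below survives the loss of virgin replicate 2; 4154 genes then still had an unadjusted p under 0.05, and the lowest adjusted p was 0.0563. The estimate of spread is shared with the other stages, among which 3 arrays (wild-type dp18 replicate 1, mutant dp18 replicate 1 and mutant Lac10 replicate 2) correlate least with the rest. Without those 3 arrays 6271 genes were called, and without them and virgin replicate 2 as well 5922 were called, among them 970 of the 983. All 983 kept their sign in both settings, but this could hardly come out otherwise. The difference does not use the 3 arrays, and groups that do not overlap keep their order when an array is left out. The kept signs are therefore no check of the calls.

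The 6 arrays are unequal in another way. The dp12 arrays correlated at 0.979 to 0.983 with each other over the tested genes, and the virgin arrays at 0.861 to 0.934. In the dp12 group 58, 99 and 82 genes lay more than 1 log2 unit from the mean of the other 2 arrays, against 1091, 1512 and 279 genes in the virgin group. The standard deviation over all probe sets was 1.98, 1.99 and 1.99 in the dp12 arrays and 1.77, 1.88 and 1.81 in the virgin arrays, so values in the virgin arrays lay closer together. The part of this difference in the changes below was not tested.

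Genes of mitosis held the highest share of calls among the 46 lists. Of 46 genes of the spindle, the chromosome passenger complex and cytokinesis, 42 rose, 0 fell and all 46 lay above zero, with a median of 1.91 against 0.28 for all genes. The count was 45 without virgin replicate 2 and the 3 outlying arrays, 0 without dp12 replicate 1 or virgin replicate 2 alone, 6 without virgin replicate 3, 27 without dp12 replicate 3, 29 after quantile normalization and 18 after housekeeping centring, where the median was 1.45. Mki67, the proliferation marker Ki-67 that coats mitotic chromosomes, read 9.64, 9.34 and 9.61 in the dp12 arrays and 7.35, 5.72 and 6.52 in the virgin arrays (RMA log2 level). Every dp12 array was above every virgin array, a rise of 3.00 ± 0.54 (SE; adjusted p = 0.00924), or 7.99-fold. Ect2, the exchange factor that starts the cleavage furrow, read 8.83, 8.42 and 8.97 in dp12 and 6.59, 5.21 and 6.20 in virgin arrays, a rise of 2.74. Kif11, the motor that pushes spindle poles apart, read 8.31, 7.77 and 8.58 in dp12 and 6.13, 5.18 and 5.31 in virgin arrays, a rise of 2.68. In both genes virgin replicate 1 was the highest of its group and the groups stayed apart. Anln, which scaffolds the contractile ring, Prc1, which bundles the midzone microtubules, and Stil, which is needed to copy centrioles, rose by 2.57, 2.49 and 2.39.

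The kinetochore and spindle checkpoint list rose in 23 of 32 members with 31 above zero and none lower (median 1.21). After housekeeping centring 3 kinetochore genes, 2 condensin, cohesin and APC genes, 2 cyclin and kinase genes, 0 cycle regulators and 1 repair gene were called. Bub1b, which encodes BubR1 of the spindle checkpoint, read 7.84, 7.76 and 7.63 in dp12 arrays against 6.23, 4.96 and 4.71 in virgin arrays, a rise of 2.44. Cenpn, which reads the centromere nucleosome, read 7.86, 7.39 and 7.85 in dp12 against 5.56, 5.28 and 5.41 in virgin arrays, a rise of 2.28 ± 0.37 with an adjusted p of 0.00924. The virgin arrays lay within 0.3 of each other for Cenpn, unlike Bub1b. Cenpe, the kinetochore motor, and Bub1, Knl1 and Ndc80, parts of the checkpoint and of the microtubule-binding plate, rose by 2.25, 2.24, 2.24 and 2.22. Among condensin, cohesin and APC genes 10 of 31 rose and all 31 lay above zero (median 0.95). Cdc20, the activator of the anaphase-promoting complex, read 8.33, 7.67 and 7.95 in dp12 arrays against 6.33, 5.07 and 5.48 in virgin arrays, a rise of 2.36 ± 0.38. Ncapd2, Ncaph, Ncapg2 and Smc2 of the condensin complexes and the APC's ubiquitin-conjugating enzyme Ube2c rose by 1.96, 1.91, 1.71, 1.62 and 1.81.

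Cyclins, their kinases and inhibitors rose in 10 of 30 members, with 26 above zero and none lower (median 0.70). Ccnb2, a mitotic cyclin, read 9.76, 9.45 and 9.52 in dp12 arrays and 7.18, 6.89 and 6.30 in virgin arrays. This rise of 2.79 ± 0.55 (adjusted p = 0.0112) was the largest of the list. Ccna2 and Cdk1, the cyclin of S phase and G2 and the kinase of mitosis, rose by 2.09 and 1.99. Cdc25c, the phosphatase that activates Cdk1, rose by 1.91, Cdk6, a kinase of G1, by 1.72 and Cdkn3, a phosphatase of CDKs, by 1.45. Of 22 transcription factors and pocket proteins of the cycle 6 rose and all lay above zero (median 0.69). E2f8, a repressor of the E2F family, read 7.64, 6.60 and 7.40 in dp12 arrays against 5.34, 5.00 and 5.23 in virgin arrays, a rise of 2.03. Foxm1, which drives genes of G2 and mitosis, the pocket protein Rbl1, and Lin9, a subunit of the complex that binds CHR letters, rose by 1.43, 1.41 and 1.31. Tfdp2, a dimer partner of E2F factors, rose by 0.99. Mybl2, which joins the Lin9 complex, rose by 0.84, while another probe set of it had the opposite sign.

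DNA synthesis genes were tested as 2 lists. Of 29 genes of origin licensing and firing 10 rose and all 29 lay above zero (median 0.87). Mcm6, a subunit of the replicative helicase, read 8.72, 8.06 and 8.32 in dp12 arrays and 6.66, 6.25 and 7.09 in virgin arrays, a rise of 1.70. Ticrr, an origin firing factor, Mcm4, Topbp1, Gins1 and Dbf4, the activating subunit of the Cdc7 kinase, rose by 1.59, 1.48, 1.23, 1.18 and 1.13. Among 38 genes of polymerases, ligation and nucleotide supply 20 rose and all 38 lay above zero (median 1.16). Top2a, the topoisomerase that untangles replicated DNA, read 8.43, 7.82 and 8.41 in dp12 arrays against 6.34, 5.41 and 5.67 in virgin arrays, a rise of 2.42. Rrm1, the large subunit of ribonucleotide reductase, rose by 1.77, the primase Prim1 by 1.65 and Uhrf1, which links DNA methylation to replication, by 1.63. Pole, the catalytic subunit of polymerase epsilon, rose by 1.89 and the flap nuclease Fen1 by 1.57, each with 1 other probe set of opposite sign. In both lists dp12 replicate 2 had the lowest mean level of its group: 7.31, 6.84 and 7.14 for dp12 replicates 1, 2 and 3 in the origin list, against 6.12, 6.13 and 6.26 in the virgin arrays. After housekeeping centring 0 origin genes and 1 polymerase gene were called (medians 0.40 and 0.69). Of 16 histone genes 3 rose, H1f5, H2ac15 and H2bc12, by 2.20, 2.15 and 1.50; they belong to clusters of near-identical copies, whose probe sets may share signal.

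Repair genes rose in 16 of 37 members, with none lower and a median of 0.82. Brca1, named in the title of the series, read 6.43, 5.74 and 6.13 in dp12 arrays and 5.26, 4.67 and 5.18 in virgin arrays, so the groups did not overlap. It rose by 1.07 ± 0.31 (adjusted p = 0.0445), or 2.09-fold. After housekeeping centring the difference was 0.60 and did not pass (adjusted p = 0.257). Chek2, a checkpoint kinase, read 7.52, 7.47 and 7.23 in dp12 arrays against 5.60, 5.94 and 4.92 in virgin arrays, a rise of 1.92. Gen1, a resolvase of recombination intermediates, the helicase Blm, the kinase Atm, the ubiquitin ligase Rad18 and the nuclease Exo1 rose by 1.43, 1.37, 1.37, 1.36 and 1.29.

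**Figure D1:**
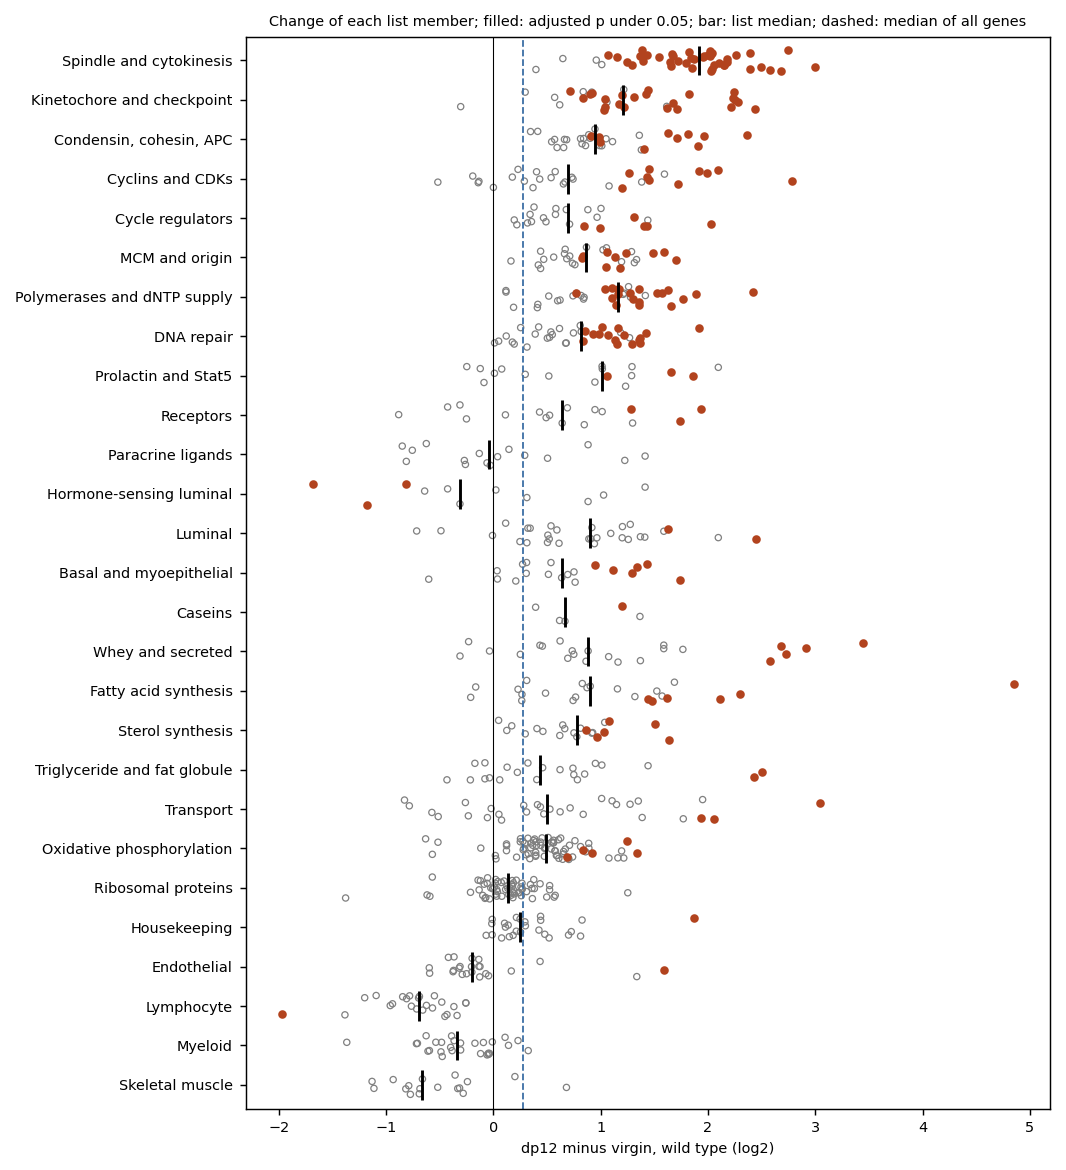
Change from virgin to dp12 in wild type (x axis, log2) of every tested member of 27 gene lists (rows). Filled points passed an adjusted p of 0.05, open points did not, black bars are list medians and the dashed line is the median of all genes, 0.28. The spindle list sits farthest right (median 1.91), and the lymphocyte and skeletal muscle lists lie mostly left of zero (medians -0.69 and -0.66).

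Receptors and alveolar fate factors rose in part. Of 17 receptors 3 rose (median 0.64) and of 17 prolactin and Stat5 pathway genes 3 rose (median 1.01), with none lower in either list. After housekeeping centring 0 genes of either list were called (medians 0.17 and 0.55). Elf5, the factor that sets alveolar fate downstream of prolactin, read 9.14, 9.24 and 8.81 in dp12 arrays and 7.85, 6.67 and 7.09 in virgin arrays. Its groups did not overlap and it rose by 1.86 ± 0.46 (adjusted p = 0.0268). Tfap2c and Nfib, transcription factors of the luminal and alveolar lineage, rose by 1.66 and 1.06. Stat5a read 8.28, 8.83 and 8.04 in dp12 against 7.54, 7.18 and 7.39 in virgin arrays, a difference of 1.01 that did not pass the test (adjusted p = 0.0652). Its dp12 arrays all lay above its virgin arrays, as in 41.7% of all tested genes. Erbb4, a receptor that signals to Stat5, read 7.82, 8.03 and 7.93 in dp12 arrays against 6.64, 5.19 and 6.16 in virgin arrays, a rise of 1.93. Tnfrsf11a, the RANK receptor, rose by 1.28, and Oxtr, the oxytocin receptor of myoepithelial cells, rose by 1.74. Prlr and Areg were not analysed here.

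Hormone-sensing luminal genes and the signals they send did not move as one set. Of 11 tested hormone-sensing genes 3 fell and none rose, with a median of -0.31 and 5 members above zero. Foxa1, a pioneer factor for the oestrogen receptor, read 6.71, 6.18 and 6.96 in dp12 arrays and 8.69, 7.47 and 8.73 in virgin arrays, with no overlap. It fell by 1.68 ± 0.46 (adjusted p = 0.0395). Prom1, a surface marker of hormone-sensing cells, read 5.38, 5.16 and 5.78 in dp12 against 6.45, 7.16 and 6.26 in virgin arrays, and fell by 1.18. Cited1, a co-regulator of the oestrogen receptor, read 7.04, 6.51 and 6.84 in dp12 against 7.48, 7.74 and 7.63 in virgin arrays, and fell by 0.82. These 3 calls also held after housekeeping centring. The receptors for oestrogen and progesterone were not called: Esr1 read 7.12, 7.19 and 6.85 in dp12 against 7.37, 7.24 and 7.49 in virgin arrays (difference -0.31 ± 0.41), and Pgr read 5.85, 5.77 and 6.53 in dp12 against 6.59, 5.62 and 7.22 in virgin arrays (difference -0.43 ± 0.32). For Pgr the groups overlapped.

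Of 16 paracrine ligands and relatives 0 were called in limma and 6 had an unadjusted p under 0.05 (list median -0.04). Over all tested genes 4931 of 15234 had such a p, a share near that of the list. Tnfsf11 read 7.12, 7.19 and 7.25 in dp12 arrays and 6.16, 5.39 and 5.78 in virgin arrays, a difference of 1.41 ± 0.55 with an adjusted p of 0.096. Wnt4 read 7.90, 8.31 and 7.95 in dp12 against 7.41, 6.98 and 7.11 in virgin arrays, a difference of 0.88 ± 0.34 with an adjusted p of 0.0927. Both had every dp12 array above every virgin array, as did 41.7% of all tested genes. Id4, an inhibitor of helix-loop-helix factors, differed by 1.22 (adjusted p = 0.0678).

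Of 5 caseins, the main milk proteins, 1 rose (median 0.67). All but Csn1s2b, which read 4.31, 4.96 and 4.06 in dp12 and 3.94, 3.62 and 3.92 in virgin arrays, were above the array median in the virgin arrays already. Csn3, kappa-casein, read 10.88, 11.04 and 10.70 in dp12 arrays and 10.09, 9.35 and 9.59 in virgin arrays, a rise of 1.20 ± 0.30 (adjusted p = 0.0275). Csn1s2a, another casein, read 12.10, 12.39 and 12.36 in dp12 against 11.22, 10.60 and 10.93 in virgin arrays (difference 1.37, adjusted p = 0.0635). Csn2, beta-casein, read 12.54, 12.79 and 12.83 in dp12 against 12.63, 11.48 and 12.05 in virgin arrays, so virgin replicate 1 lay among the dp12 arrays and the difference of 0.67 ± 0.40 did not pass.

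Of 23 whey and other secreted proteins 5 rose, none fell and the median was 0.88. Wap, whey acidic protein, read 8.45, 9.86 and 7.98 in dp12 arrays and 6.21, 5.83 and 6.06 in virgin arrays, a rise of 2.73 ± 0.58 (adjusted p = 0.0147) or 6.62-fold. The virgin arrays lay close together and dp12 replicate 2 was the highest. Glycam1, a mucin-like milk protein, read 12.03, 12.68 and 12.36 in dp12 against 11.13, 9.97 and 5.65 in virgin arrays, a rise of 3.44 ± 0.87 in which virgin replicate 3 alone lay far below. Pigr, the transporter of secretory antibodies, read 8.17, 9.87 and 8.09 in dp12 against 6.56, 5.91 and 5.63 in virgin arrays, a rise of 2.68. Lao1, an amino acid oxidase of milk, and the membrane mucin Muc15 rose by 2.91 and 2.58. Lalba, the lactose synthase subunit, read 7.39, 10.06 and 8.39 in dp12 against 5.24, 9.49 and 6.34 in virgin arrays, so the groups overlapped, replicate 2 was the highest in each, and the difference of 1.59 ± 1.03 did not pass.

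Lipid synthesis held the largest rise of all. Of 23 fatty acid synthesis genes 6 rose, none fell and the median was 0.90. Olah, the thioesterase that releases medium-chain fatty acids in the mammary gland, read 10.33, 10.61 and 9.42 in dp12 arrays and 5.86, 4.69 and 5.26 in virgin arrays. No dp12 array came near a virgin array, and the rise was 4.85 ± 0.65 (adjusted p = 0.00447), or 28.8-fold. Fasn, fatty acid synthase, read 11.39, 11.85 and 10.40 in dp12 against 9.09, 8.74 and 8.92 in virgin arrays, a rise of 2.29. Thrsp, a regulator of lipogenesis, the desaturase Fads1, the transcription factor Srebf1 and Acly, which makes acetyl-CoA for lipid synthesis, rose by 2.11, 1.62, 1.48 and 1.44. After housekeeping centring 2 of the 23 were called.

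Sterol synthesis and uptake rose in 6 of 21 genes, and all 21 lay above zero (median 0.78). Hmgcs1, which makes HMG-CoA, read 8.79, 9.09 and 8.52 in dp12 arrays and 7.36, 7.12 and 7.00 in virgin arrays, a rise of 1.64 with no overlap. Cyp51, a demethylase of lanosterol, Stard4, a sterol carrier, Lss, lanosterol synthase, Hsd17b7, which also works in cholesterol synthesis, and Pmvk, phosphomevalonate kinase, rose by 1.51, 1.08, 1.03, 0.97 and 0.86. Housekeeping centring left 0 of these calls. Of 22 triglyceride and fat globule genes 2 rose (median 0.43, and -0.04 after housekeeping centring). Btn1a1, butyrophilin of the fat globule membrane, read 9.24, 10.46 and 9.00 in dp12 against 7.12, 7.19 and 6.87 in virgin arrays, a rise of 2.51, and Lpin1, a phosphatidate phosphatase, rose by 2.43.

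Of 30 transporters 3 rose, which is little more than the share over all genes (median 0.50, and 0.03 after housekeeping centring). Slc34a2, a phosphate transporter, read 8.14, 9.58 and 7.08 in dp12 arrays and 5.51, 5.29 and 4.87 in virgin arrays, a rise of 3.05 ± 0.78 with no overlap. Atp7b, a copper pump, and Slc5a1, a sodium and glucose transporter, rose by 2.05 and 1.94. Of 18 genes of serine, glycine and one-carbon metabolism 4 rose (median 0.61). Gldc of the glycine cleavage system read 8.10, 8.98 and 7.47 in dp12 against 5.91, 5.67 and 5.50 in virgin arrays, a rise of 2.50, and its partner Amt rose by 1.61. Mthfd1 and Shmt1, which supply one-carbon units, rose by 1.11 and 1.07. In the secretory lists dp12 replicate 2 was mostly the highest array: the mean level of the whey list was 8.56, 9.33 and 8.71 in dp12 replicates 1, 2 and 3, against 7.89, 7.59 and 7.47 in the virgin arrays.

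Of 71 respiratory chain genes 5 rose, a share near the 5.91% of all tested genes called higher, and 67 lay above zero, against 10109 of all 15234. The median was 0.49, and 0.02 with 0 calls after housekeeping centring. Ndufs1 of complex I read 7.52, 7.56 and 7.50 in dp12 arrays and 6.18, 6.11 and 6.26 in virgin arrays, a rise of 1.34. Ndufc2 and Ndufa5 of complex I, Uqcrc2 of complex III and Sdhc of complex II rose by 1.25, 0.68, 0.92 and 0.83. In limma 0 of 46 endoplasmic reticulum and unfolded protein response genes, 0 of 18 cytosolic tRNA synthetases and 0 of 64 ribosomal proteins were called, while 10, 4 and 2 had an unadjusted p under 0.05. Each of these shares lay below that over all tested genes, 4931 of 15234. The medians of these lists were 0.38, 0.47 and 0.14, and -0.09, 0.00 and -0.33 after housekeeping centring, so their direction depends on the scaling. Spcs3, a signal peptidase subunit, and Eif2ak3, the stress sensor PERK, differed by 1.14 and 1.09 (adjusted p = 0.084 and 0.0557), and Lars, the leucyl synthetase, by 0.81.

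**Figure D2:**
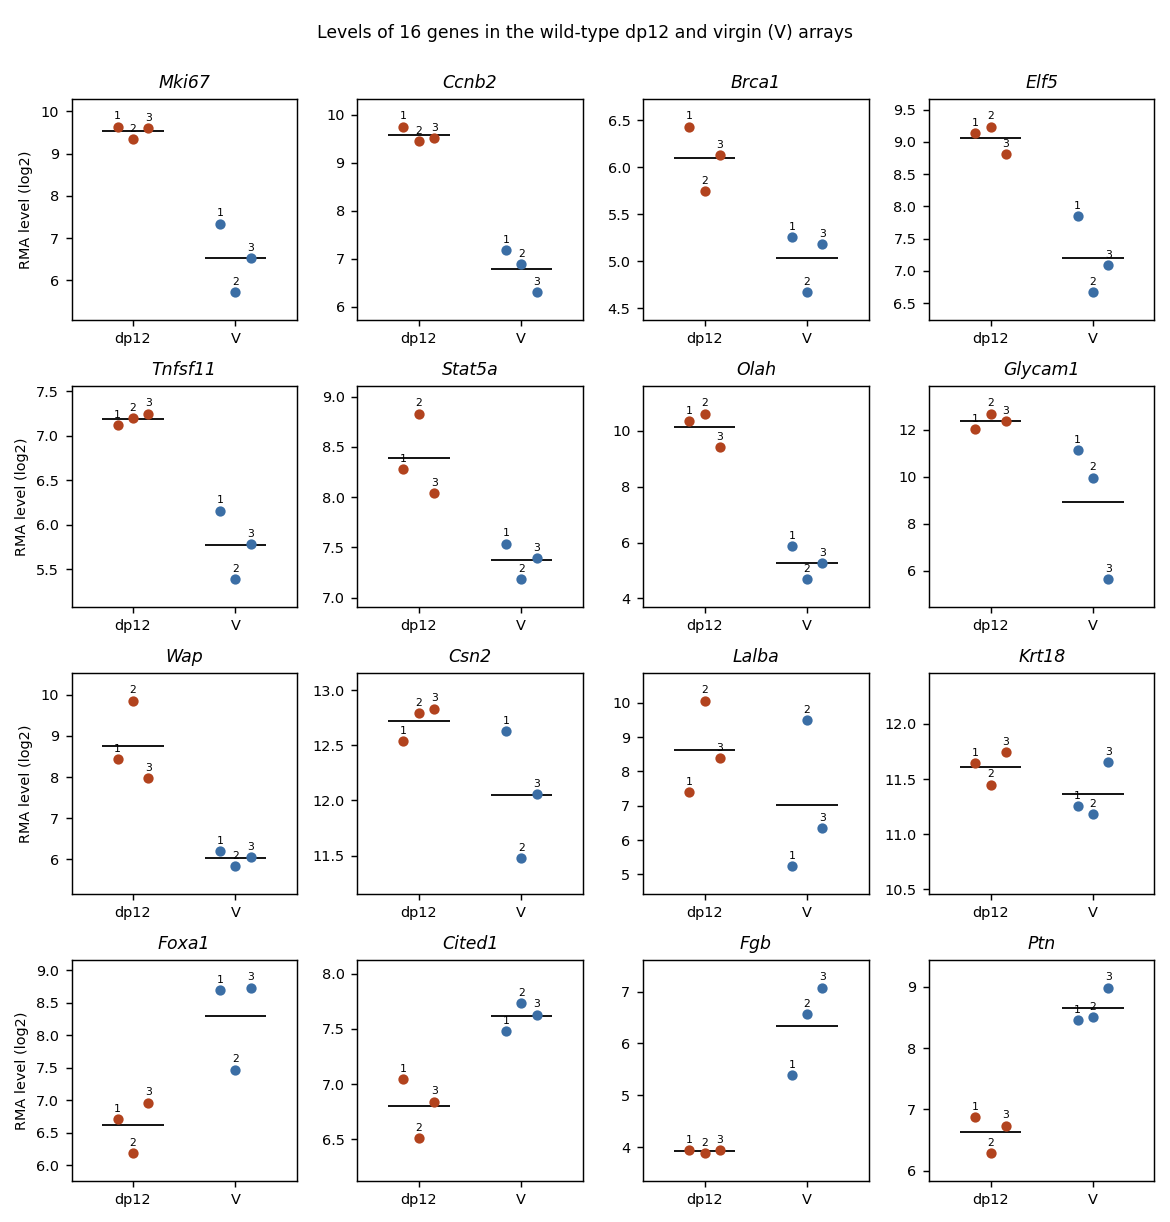
RMA log2 level (y axis, a separate scale for each gene) of 16 genes in the 3 wild-type dp12 arrays (left) and the 3 wild-type virgin arrays (right). Points are single arrays numbered by replicate and lines are group means. Mki67, Ccnb2, Elf5, Olah and Wap separate the stages, Csn2, Lalba and Krt18 overlap, and Foxa1, Cited1, Fgb and Ptn are lower in dp12.

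Other genes among the 15 largest rises lie in none of the lists. Fam20a, a pseudokinase that aids secretory protein phosphorylation, read 9.66, 10.32 and 9.33 in dp12 arrays and 7.64, 5.87 and 6.51 in virgin arrays, a rise of 3.10. Chrdl2, an antagonist of bone morphogenetic proteins, read 8.15, 9.38 and 7.91 in dp12 against 5.64, 5.63 and 5.55 in virgin arrays, a rise of 2.87. The virgin arrays were within 0.1 of each other for Chrdl2. Atp13a4, a P-type pump, rose by 2.61.

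The falls were of 2 kinds. Of the 15 largest among called genes without overlap, 7 are genes with a described role. Ptn, the heparin-binding growth factor pleiotrophin, read 6.87, 6.28 and 6.73 in dp12 arrays and 8.45, 8.50 and 8.98 in virgin arrays, and fell by 2.02 ± 0.32 (adjusted p = 0.00924). Fgb, the fibrinogen beta chain, read 3.93, 3.88 and 3.94 in dp12 against 5.39, 6.57 and 7.08 in virgin arrays, and fell by 2.43. Neither gene overlapped between the groups. The chemokines Cxcl15 and Cxcl13 fell by 1.91 and 1.97, Sprr1a, an envelope protein of keratinocytes, fell by 1.82, R3hdml, a secreted protein of the CAP family, by 2.23 and the small nucleolar RNA Snora75 by 2.02. The other 8 were Gm26504, Vmn1r14, 9530057J20Rik, Btbd35f16, Olfr1141, Gm5797, E330016L19Rik and Trim43c, which are predicted genes, clones, chemosensory receptors or members of multigene families. They fell by 4.13, 3.50, 3.39, 3.17, 2.52, 2.20, 2.04 and 1.95. Gm26504 read 5.41, 5.49 and 5.65 in dp12 arrays and 10.32, 9.02 and 9.61 in virgin arrays. Vmn1r14, Btbd35f16, Olfr1141 and E330016L19Rik lay below the array median in every dp12 array and above it in every virgin array. The virgin arrays, where these genes are high, can thus have carried them past the level filter. In the mutant mice the same step gave these 8 differences of -0.67 to 0.17, and none of them passed the test there; the difference between the steps was tested and did not pass for any of them.

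That second kind of fall extended over the dim end of the arrays. Of 1443 olfactory, vomeronasal and taste receptor genes on the array, whatever their level, 1405 were lower in dp12 and 1145 (79.3%) had every dp12 array below every virgin array, against 25.6% of all 22180 genes taken without the level filter. Their mean level was 3.50, 3.48 and 3.45 in the dp12 arrays and 4.34, 4.02 and 4.59 in the virgin arrays, and their median change was -0.73. The mutant arrays gave means of 3.51, 3.53 and 3.47 for dp12 and 3.51, 3.52 and 3.60 for virgin, with a median change of -0.04. Only 385 of the 1443 passed the level filter, with a median change of -1.35, and 4 of these were called lower. Those 385 averaged 4.21, 4.20 and 4.18 in the dp12 arrays and 5.65, 5.14 and 5.99 in the virgin arrays. In wild-type dp18 and Lac10 arrays they averaged 5.06 and 4.33, so the dp18 mean also lay well above dp12. Vmn1r14 averaged 5.01 with a standard deviation of 2.48 in wild-type dp18, so those arrays differed widely among themselves. The filter needs 3 arrays, so the 3 wild-type virgin arrays can carry a dim gene past it. Falls among dim tested genes are then partly built in by the filter, and how far was not tested. Over tested genes ordered by mean level, the median change in wild type was -0.27 in the dimmest of 5 equal groups, then 0.09, 0.44, 0.54 and 0.43, while in the mutant it ran from -0.06 to 0.08. Of 2783 genes named only by number, 2166 were lower in dp12 (median -0.27), against 11182 of all 22180 genes (median -0.01). Among the 1029 of them that passed the level filter 27 were called higher and 11 lower. The standard deviation over all probe sets was 1.97, 1.96 and 1.91 in the mutant virgin arrays, above the 3 wild-type virgin arrays, and 1.65 to 1.71 in the 3 outlying arrays named above. Wild-type virgin replicates 1, 2 and 3 had standard deviations of 1.77, 1.88 and 1.81, and chemosensory means of 4.34, 4.02 and 4.59. So replicate 2 had the largest standard deviation and the lowest chemosensory mean, while replicates 1 and 3 did not keep that order. The wild-type dp12 arrays had larger standard deviations (1.98, 1.99 and 1.99) and lower chemosensory means than any of these. The part of the spread in the falls was not tested.

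**Figure D3:**
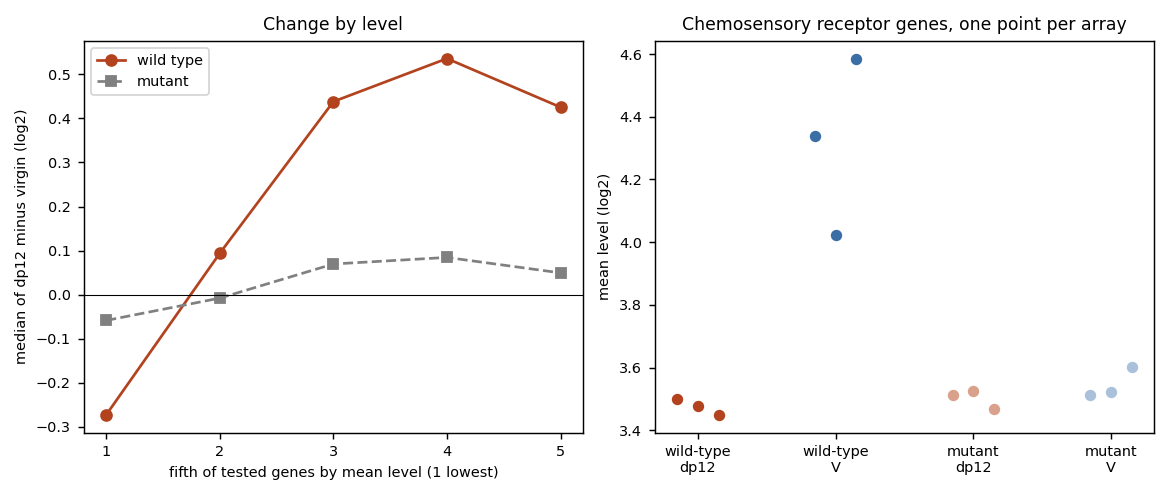
Left, the median of dp12 minus virgin (log2) in 5 equal groups of tested genes by mean level (1 the dimmest), for wild type (circles) and mutant (squares). Dim genes can have passed the level filter through the wild-type virgin arrays. Right, the mean log2 level of 1443 chemosensory receptor genes in each array of 4 groups. The 3 wild-type virgin arrays (4.02 to 4.59) stand above the 3 wild-type dp12 arrays (3.45 to 3.50) and above the mutant dp12 and virgin arrays.

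The cell type markers were checked next, since the labels name no tissue. Luminal and basal epithelial genes were present in all 6 arrays: Krt18 read 11.64, 11.45 and 11.74 in dp12 and 11.26, 11.18 and 11.66 in virgin arrays, and Krt14 read 8.76, 8.55 and 8.84 in dp12 and 8.91, 8.15 and 8.98 in virgin arrays, against array medians of 5.31 to 5.48. Neither differed by more than its spread (0.25 ± 0.81 for Krt18 and 0.03 ± 0.30 for Krt14), and both turn negative after housekeeping centring. In bulk tissue fewer cells of a type and less RNA per cell cannot be told apart.

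Of 30 luminal genes 2 rose, a share near the 5.91% of all tested genes called higher, and 27 lay above zero (median 0.90). After housekeeping centring 1 luminal gene was called (median 0.43). Cldn8, a tight junction protein, read 9.03, 9.64 and 8.83 in dp12 arrays and 7.64, 6.04 and 6.47 in virgin arrays, a rise of 2.45, and Grhl1, an epithelial transcription factor, rose by 1.63. Ehf, another epithelial factor, read 9.64, 9.85 and 9.80 in dp12 against 9.06, 6.02 and 7.91 in virgin arrays (difference 2.10, adjusted p = 0.0868). Of 19 basal genes 6 rose and 18 lay above zero (median 0.64). The 6 are mostly contractile: Cnn1, Myh11, Actg2 and Mylk, parts of the smooth muscle contractile machinery, rose by 1.34, 1.30, 1.11 and 0.94, beside Oxtr and Lamb3, a laminin chain, at 1.74 and 1.43. Acta2, smooth muscle actin, read 11.97, 11.85 and 11.97 in dp12 against 11.62, 11.20 and 11.42 in virgin arrays (difference 0.51 ± 0.19, adjusted p = 0.084). No basal gene was called after housekeeping centring.

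Virgin replicate 2 differed from its group in cell type markers. The mean level of the luminal list was 9.31, 9.21 and 9.28 in dp12 replicates 1, 2 and 3, and 8.73, 7.99 and 8.62 in virgin replicates 1, 2 and 3; the summed levels ran from 276.2 to 279.3 in dp12 and from 239.7 to 261.9 in virgin arrays. For the 24 lymphocyte genes the means were 5.10, 5.34 and 5.87 in dp12 arrays and 5.53, 7.55 and 5.47 in virgin arrays, with sums of 122.3 to 140.9 in dp12 and 131.2 to 181.1 in virgin arrays. The 23 endothelial genes averaged 7.63, 7.79 and 8.03 in dp12 and 7.09, 8.82 and 7.75 in virgin arrays, and the 17 skeletal muscle genes averaged 6.03, 5.93 and 5.96 in dp12 and 6.00, 7.43 and 6.04 in virgin arrays. So replicate 2 was the lowest virgin array in epithelial genes and the highest in lymphocyte, endothelial and muscle genes. Myeloid genes averaged 6.45, 6.73 and 6.61 in dp12 and 5.83, 7.85 and 7.02 in virgin arrays, with virgin replicate 1 the lowest of the 6.

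Medians of the stromal lists moved to near zero or turned positive without that array. All 24 lymphocyte genes were below zero (median -0.69), 1 of them called, Cxcl13, which follicular stromal cells make; without virgin replicate 2 the median was 0.02. The endothelial list had a median of -0.20 with all arrays and 0.28 without it, and the myeloid list -0.34 and 0.17. Of 19 white adipocyte genes 0 were called in limma and 3 had an unadjusted p under 0.05, with a median of -0.37, and of -0.02 without that array. Of 28 myeloid genes 0 were called and 2 had such a p. Both shares lay below the 4931 of 15234 over all tested genes. Car3, an adipocyte carbonic anhydrase, read 7.00, 6.59 and 7.14 in dp12 arrays and 5.98, 10.15 and 8.46 in virgin arrays. By contrast the spindle, fatty acid and luminal medians were 1.75, 0.93 and 0.56 without virgin replicate 2. Among 35 fibroblast and matrix genes (median -0.02, and 0.35 without virgin replicate 2) 1 fell, and among 23 endothelial genes 1 rose. Pi16, a fibroblast marker, read 7.03, 7.31 and 7.21 in dp12 against 7.84, 9.90 and 8.66 in virgin arrays and fell by 1.61. Apln, a ligand of tip endothelial cells, rose by 1.59 although its lowest dp12 array, 5.93, was just under its highest virgin array, 5.94. Fkbp11, in the plasma cell list (9 genes, median 0.18, and -0.29 after housekeeping centring) and also a chaperone of secretory cells in general, rose by 1.54, and Cox7a1, in the brown adipocyte list, by 1.09. In the skeletal muscle list 0 of 17 genes were called and 9 had an unadjusted p under 0.05 (median -0.66, and -0.21 without virgin replicate 2). Ckm, muscle creatine kinase, read 5.44, 5.51 and 5.33 in dp12 arrays and 5.63, 8.08 and 5.97 in virgin arrays, so virgin replicate 2 alone stood high.

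The remaining lists held 0 or 1 call each in limma. Btg2, an antiproliferative gene of the p53 and immediate early lists, rose by 1.13, the only call of 23 and of 22 genes (medians 0.38 and 0.37). Hlf, a PAR bZIP factor of the clock output, rose by 1.52, the only call of 17 clock genes (median 0.28). Tfrc, the transferrin receptor, rose by 1.87 as the only call of the 26 housekeeping genes (median 0.25), and Fgb was the only call of 8 hepatocyte genes (median -0.48). Of 25 interferon response, 8 nerve, 8 mast cell, 6 keratinocyte and 2 erythroid genes 0 were called, with 2, 2, 2, 0 and 0 at an unadjusted p under 0.05 and medians of 0.32, 0.14, -0.06, 0.24 and 0.01. The share with such a p over all tested genes was higher, 4931 of 15234. Housekeeping centring gave these 5 lists medians of -0.14, -0.33, -0.53, -0.23 and -0.46, and gave the p53, immediate early, clock and housekeeping lists medians of -0.09, -0.10, -0.19 and -0.22, so the positive medians turned negative. Cmpk2, an interferon-induced kinase, differed by 1.18 (adjusted p = 0.0524).

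**Figure D4:**
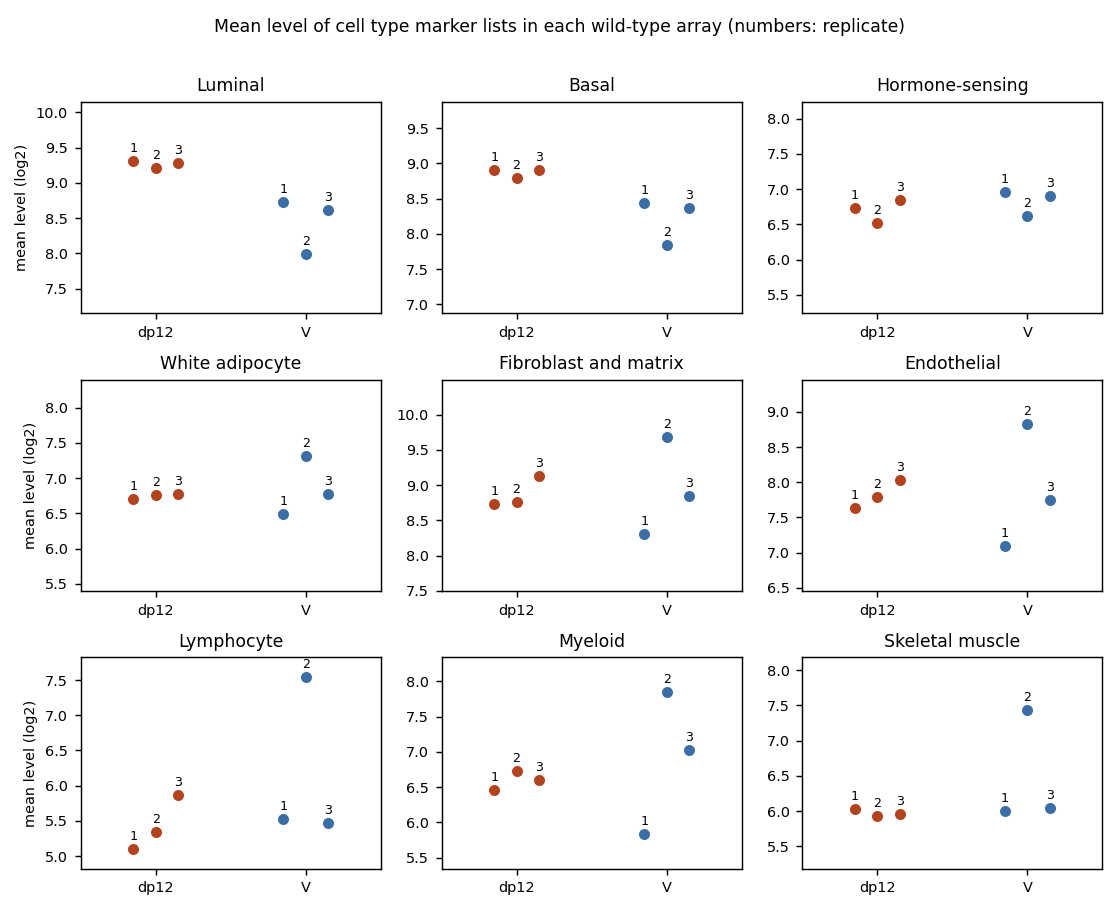
Mean log2 level of 9 cell type marker lists in each wild-type array, dp12 left and virgin right, points numbered by replicate (each panel spans 3 log2 units). Virgin replicate 2 is the lowest point for luminal and basal genes and the highest for lymphocyte, endothelial, myeloid and skeletal muscle genes.

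The same step in the mutant mice is the comparison most like this one and shares no array with it; both steps share the estimate of spread. There 677 genes were called, 460 higher and 217 lower. Of the 901 rises in wild type 860 were above zero in the mutant and 294 were also called higher; of the 82 falls 76 were below zero in the mutant and 28 were also called lower. Spindle genes had a median of 1.91 in wild type and 2.14 in the mutant, fatty acid genes 0.90 and 1.06, and origin genes 0.87 and 1.08. Other lists were less alike. Luminal genes had medians of 0.90 in wild type and -0.0006 in the mutant, and receptors 0.64 and 0.13. Prolactin and Stat5 genes had 1.01 and 0.35, and clock genes 0.28 and -0.33. These differences between list medians were not tested. The test of the difference between the steps, over all 15234 genes, called 1 gene, and 907 had an unadjusted p under 0.05. Cyp3a57, a cytochrome P450, read 3.79, 3.71 and 4.18 in wild-type dp12 arrays and 5.07, 4.33 and 4.62 in wild-type virgin arrays, a difference of -0.78. In the mutant it averaged 3.79 ± 0.13 in dp12 arrays and 6.78 ± 0.56 in virgin arrays (SD, n = 3 each), a fall of 2.98. The mutant step minus the wild-type step was -2.21 ± 0.33 (adjusted p = 0.0252). Only the 3 mutant virgin arrays had this gene above the array median, so it passed the level filter through them alone; with no filter the adjusted p was 0.0257. The call was lost after housekeeping centring (adjusted p = 0.605), with a variance trend (0.411) and when any 1 of the 6 wild-type arrays but virgin replicate 1 was left out (0.0528 to 0.162).

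The next 4 genes by p did not pass: Mir1933, a miRNA gene that rose by 1.45 in wild type and differed by -0.73 in the mutant, Pgr with -0.43 and -2.64, Anxa9 with 0.36 and -0.76, and Slc35f3 with 0.66 and -0.89, with adjusted p of 0.218, 0.351, 0.664 and 0.664 for the difference. Pgr, the progesterone receptor, averaged 6.05 ± 0.42 in wild-type dp12 and 6.48 ± 0.81 in wild-type virgin arrays, and 5.64 ± 0.19 in mutant dp12 and 8.28 ± 0.24 in mutant virgin arrays (SD, n = 3 each). In the hormone-sensing list the wild-type median was -0.31 with 3 genes lower, and the mutant median was -0.60 with 5 lower. Tnfsf11 differed by 1.41 in wild type and -0.13 in the mutant, and Wnt4 by 0.88 and -0.03, with unadjusted p of 0.0596 and 0.0684 for the difference between the steps. Brca1 rose by 1.07 in wild type and by 1.66 in the mutant. Without the 3 outlying arrays the test of the difference called 478 genes.

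**Figure D5:**
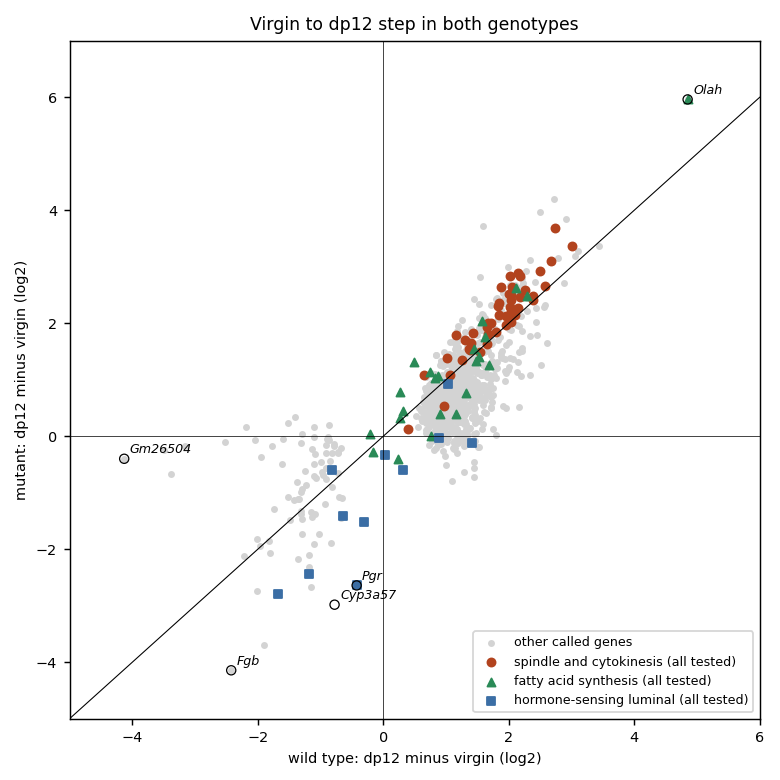
Change from virgin to dp12 (log2) in wild type (x axis) and in the mutant (y axis) for genes called in wild type (grey) and for all tested genes of 3 lists; ringed genes are named and the diagonal marks equal change. Spindle and fatty acid genes lie near the diagonal, Gm26504 near zero in the mutant, and Pgr and Cyp3a57 well below the diagonal. Olah stands at 4.85 and 5.96.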

How the data were processed

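Levels of RNA came from 24 single-colour arrays, 3 for each of 8 groups of stage and genotype, taken from the labels. The authors deposited log2 values made with RMA, per the submitters' processing notes; a version, the background step and the probe annotation they used are not given in the sources used here. No value column belonged to another sample (0 columns). Probe sets were named from the platform annotation, and each gene was read on its probe set of highest mean. Genes above the array median on at least 3 arrays were tested with limma 3.58.1 in R 4.3.3: group means over all 24 arrays, the contrast dp12 minus virgin, eBayes and Benjamini-Hochberg adjustment at 0.05. The test was checked on simulated data. The comparison, the 46 gene lists and the rule for named genes (the 15 largest rises and falls among called genes without overlap, up to 6 called members of a list or up to 3 of largest change where fewer than 3 passed, a fixed set, and the 5 smallest p of the genotype difference) were chosen with earlier results of these data known; Mcm7 was named after its values were seen. Deviations of same-numbered arrays correlated at 0.09, 0.03 and 0.01, so no effect shared by replicate number was seen. These values cannot settle whether the arrays were paired, and the labels do not state it. The number of arrays limits the precision. Promoter letters are RefSeq's, build GRCm38.p6, matched by gene ID.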

Additional observations from a re-analysis of the deposited data

Results flagged for a closer look

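Cyp3a57 was the 1 gene whose step from virgin to dp12 differed between the genotypes by the test of the difference itself. The mutant step minus the wild-type step was -2.21 ± 0.33 (limma adjusted p = 0.0252), from -2.98 in the mutant and -0.78 in wild type, lower in dp12 in both. It passed the level filter through the 3 mutant virgin arrays alone, and the call was lost after housekeeping centring (adjusted p = 0.605), with a variance trend (0.411) and without any 1 of 5 of the 6 wild-type arrays (0.0528 to 0.162).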

How the results depend on the processing

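For dp12 minus virgin in wild type, 983 genes were called; housekeeping centring gave 142, array median centring 545, quantile normalization 290, array weights 9731, the 6 compared arrays alone 5964 and the fit without the 3 outlying arrays 6271. Leaving out 1 array of the 6 gave 0 to 904. In alternatives chosen after seeing the data, leaving out virgin replicate 2 with the 3 outlying arrays gave 5922, and leaving out those 3 with housekeeping centring gave 4326, of which 753 were higher and 3573 lower, so the split between higher and lower depends on the scaling: 901 higher and 82 lower as reported, 81 and 61 after housekeeping centring, 203 and 87 after quantile normalization, 4820 and 1451 without the 3 arrays, 4728 and 1236 on the 6 arrays alone, and 7337 and 2394 with array weights; the cause of these moves was not tested. With the wild-type number as a replicate block on the 6 arrays 4712 genes were called, 967 of them shared with the 983. Whether the numbers pair the arrays is not stated. The 12 wild-type arrays alone gave 1467 and 680 were called with no filter on level. For the difference between the steps, 1 gene was called; array weights gave 4302, the fit without the 3 outlying arrays 478, without virgin replicate 2 as well 852, with housekeeping centring instead 46, and housekeeping centring, the variance trend and the stricter filter 0; leaving out 1 array gave 0 to 1. Among 162 genes followed, none of the 126 called ones changed sign under the 19 planned or 2 added alternatives. Leaving out arrays of other groups does not alter the differences. Leaving out a compared array cannot change a sign where the groups do not overlap, so those settings could not have shown a reversal there. Krt18 became -0.22 and Anxa9 -0.11 with housekeeping centring, with or without the 3 arrays. Krt14 became -0.43 with it, -0.33 after quantile normalization, -0.20 with array weights, -0.03 without dp12 replicate 3 and -0.23 without virgin replicate 2 (also without the 3 arrays), within a range of -0.23 to 0.19 over the arrays left out singly. The 3 arrays a group and the signal of dim probes limit what can be read.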

Other observations

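Probe sets without a single gene symbol number 17824, and 9522 of them passed the same level filter. In a separate limma fit and adjustment, 69 of these 9522 were called higher in dp12 and 0 lower, at a median change of 0.10. Among the tested genes 5.91% were called higher and 0.538% lower, so calls were rarer here in both directions. Because the fits and adjustments were separate, the counts are not directly comparable.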
